A study of Rattus norvegicus with 50 samples.

Results

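Chemokines of type 2 immunity and of lymphocyte homing were followed in the lungs of rats after inhalation of titanium dioxide (TiO2) nanoparticles. The 9 genes were Ccl1, Ccl11, Ccl17, Ccl19, Ccl20, Ccl22, Ccl24, Cxcl12 and Cxcl13, of 25208 genes tested on the array. They were taken by name, as the gene spots whose gene name in the array files was one of the 9, which gave 22 spots for 11 probes. All 9 genes passed the filter on dim probes. All animals were male F344 rats, an inbred strain. The labels give an age of 12 weeks for every rat, whatever the day of lung collection. They do not give the age at collection day by day. The exposed rats breathed an aerosol of TiO2 P25 nanoparticles through the nose at 10 mg/m3, for 6 hours per day, 5 days per week, during 4 weeks. The control rats breathed filtered air in the same way. The days of lung collection are written D0, for the end of exposure, and D3, D28, D90 or D180, for the number of days since then. Each day had 5 control and 5 exposed rats, with 1 array per rat and 50 arrays in all.

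Chemokines are small secreted proteins that guide leukocytes along gradients by binding receptors on their surface. Ccl17 and Ccl22 bind Ccr4, and Ccl1 binds Ccr8, receptors found on type 2 helper and regulatory T cells. Ccl11 and Ccl24, the eotaxins, bind Ccr3 and draw eosinophils. Ccl20 binds Ccr6 on immature dendritic cells, B cells and some T cells. Ccl19 binds Ccr7 and, with Cxcl13, which binds Cxcr5, sets T cell and B cell zones in lymphoid tissue, while Cxcl12 binds Cxcr4 and Ackr3 and retains many leukocytes in tissues. In the lung these genes are expressed by macrophages, dendritic cells, epithelium and stromal cells.

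The values below are the processed fluorescence intensity of a probe on the log2 scale, quantile normalized between arrays, so a difference of 1 is a 2-fold change in signal. They compare rats for 1 probe, and levels of different probes were not compared. The median processed signal of an array was 198 to 474 on the linear scale, and 68.8% to 84.5% of gene spots were well above background by the mark of the scanning software. The number of arrays limits the precision. The whole accessory lobe was used, so more cells of a type and more RNA per cell cannot be told apart. The 6 lung epithelium markers tested, among them Sftpc, Scgb1a1 and Foxj1, were well above background on every array, and 0 of them was called at any day. The arrays came from 7 slides, each with control and exposed rats, and D0, D3 and D28 lay on other slides than D90 and D180, except for replicate 1 of the exposed rats at D3. The animal numbers in the labels of exposed replicate 2 and control replicates 4 and 5 at D180, and of control replicates 4 and 5 at D28, lie apart from those of the rest of their groups, and groups were taken from the sample titles. Ccl1 was called with any 1 rat left out, with a log2 change of 2.55 to 2.91 at D180 and 2.11 to 2.65 at D28, while the D28 call of Ccl22 was lost without control replicate 4 (0.58).

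A gene was called differentially expressed when it changed 1.5-fold or more, up or down, with an adjusted p below 0.05 (limma with Benjamini-Hochberg adjustment over all 25208 genes). Of the 9 chemokines, 4 were over-expressed at D0 and 0 under-expressed, where 2.77% of all genes were over-expressed. At D3 4 were over-expressed and 1 under-expressed, against 1.98% and 1.51% of all genes. At D28 2 were over-expressed, against 0.861% of all genes. At D90 and at D180 only 1 was, against 0.246% of all genes at each of these days. The over-expressed genes were Ccl1, Ccl17, Ccl20 and Ccl22 at D0 and D3, Ccl1 and Ccl22 at D28, and Ccl1 alone at the later days. All exposed rats lay above all controls for 4 of the 9 at D0 (4.76% of all genes), 4 at D3 (3.35%), and for 1, Ccl1, at D28 (2.23%), D90 (2.2%) and D180 (2.77%). The under-expressed gene at D3 was Ccl11. The median log2 change over the 9 genes ran from -0.16 (D90) to -0.01 (D180), beside -0.01 to 0.00 over all genes. Neither Ccl19, Cxcl12, Cxcl13 nor Ccl24 passed both limits at any day.

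**Figure D1:**
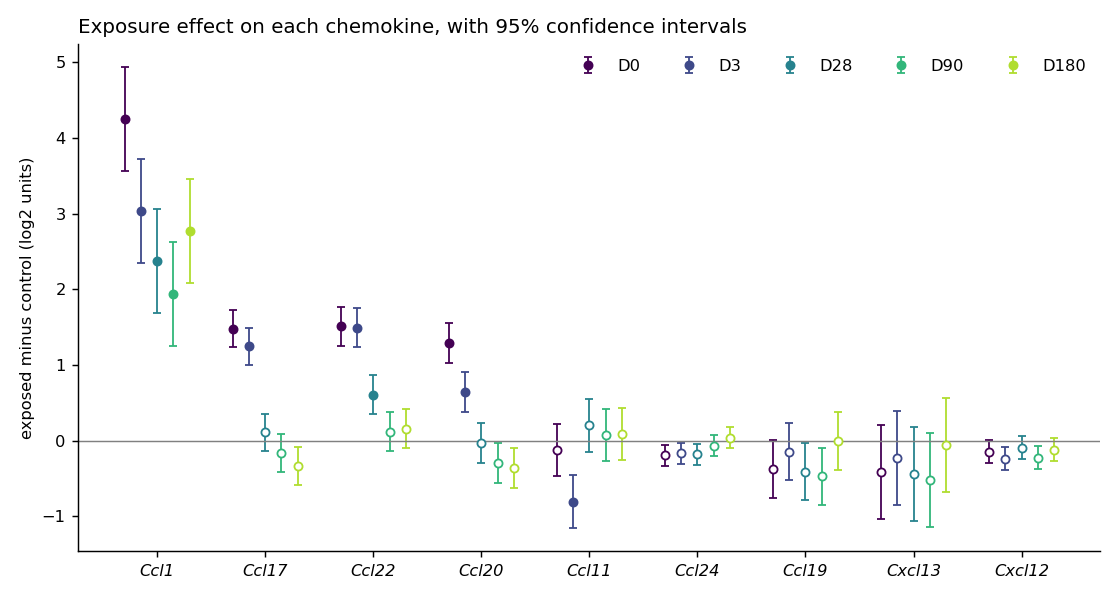
Log2 change in signal of exposed against control rats for each chemokine (vertical axis, log2 units) at D0, D3, D28, D90 and D180, with 95% confidence intervals from the limma fit and 5 rats per group. Filled points passed both limits of the call; Ccl1 stayed filled at all 5 days, from 4.25 at D0 to 1.94 at D90, while Ccl17 and Ccl20 were filled at D0 and D3.

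Ccl1 was the chemokine with the largest change, over-expressed at every day of the follow-up. Its 60-base probe lay at chr10:70380681-70380740, minus strand, in the rn4 build that the array files name, and is shown because every Ccl1 value rests on it.
Ccl1 probe: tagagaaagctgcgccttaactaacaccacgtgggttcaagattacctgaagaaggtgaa
At D0 the control rats had log2 values of 3.00, 3.65, 3.81, 5.42 and 3.87, and the exposed rats 7.89, 8.29, 8.45, 8.06 and 8.31. All 5 exposed rats lay above all 5 controls, and no D0 control was well above background. Each control array was then given the higher of its own value and the lowest signal measured above background. On these values the signal was 18-fold higher in exposed rats. This is not a lower bound, as normexp background correction gave a log2 change of 2.06. The uncorrected change of 4.25 had an adjusted p of 3.98e-13 in limma. At D3 the controls had 5.24, 4.17, 5.07, 4.08 and 4.93, against 7.53, 7.45, 7.76, 7.78 and 8.13 in exposed rats. At D28 the controls had 5.62, 6.01, 4.82, 3.85 and 4.19, against 7.12, 7.33, 7.24, 7.44 and 7.23. Both days again showed no overlap between the groups. At D90 the controls had 4.14, 5.02, 4.67, 4.83 and 5.25, against 6.33, 6.25, 6.62, 7.65 and 6.74. At D180 the controls had 4.87, 4.19, 3.46, 4.49 and 4.54, against 6.59, 7.59, 6.82, 7.01 and 7.37. So every exposed rat had more Ccl1 signal than every control of its day up to the last day sampled.

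The log2 change of Ccl1 was 4.25 ± 0.34 (SE) at D0, 3.03 at D3 (adjusted p = 6.71e-09), 2.37 at D28 (adjusted p = 5.41e-06), 1.94 at D90 (adjusted p = 0.00047) and 2.77 at D180 (adjusted p = 7.61e-07). Its mean in exposed rats was in the order D0 (8.20 ± 0.22, SD, n = 5), D3 (7.73 ± 0.27), D28 (7.27 ± 0.12), D180 (7.08 ± 0.40) and D90 (6.72 ± 0.56). The range of D90 overlapped those of D180, D28 and D3, the range of D180 those of D28 and D3, and the range of D3 that of D0. Ccl1 was higher in exposed rats on each slide that held both groups, on 4 of 4 slides at D0 and D3 and on 3 of 3 at D28, D90 and D180. Control signal was close to background, with 3 of 5 controls well above background at each of D3, D28, D90 and D180, so the size of these changes depends on how background is removed. With normexp background correction they were 2.06 at D0, 0.82 at D90 and 1.20 at D180, and the 5 calls held.

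Ccl17 and Ccl22, which share the receptor Ccr4, were both over-expressed at D0 and D3. Their probes lay 56.2 kb apart on chromosome 19 (rn4), at chr19:10641376-10641435 for Ccl17 and chr19:10697623-10697682 for Ccl22, both on the minus strand. The Ccl17 probe is shown as the sequence behind its values.
Ccl17 probe: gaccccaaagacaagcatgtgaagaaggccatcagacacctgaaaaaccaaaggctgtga
At D0 Ccl17 had log2 values of 7.99, 8.14, 8.04, 7.70 and 7.77 in controls, and 9.36, 9.30, 9.66, 9.53 and 9.20 in exposed rats. At D3 it had 8.10, 8.18, 8.17, 8.39 and 7.86 in controls, and 9.46, 9.29, 9.31, 9.31 and 9.54 in exposed rats. The groups stood apart at both days, with changes of 1.48 ± 0.12 (SE, adjusted p = 1.09e-12) and 1.25 (adjusted p = 2.45e-10). From D28 on the groups overlapped. The change in Ccl17 was 0.11 at D28 (95% confidence interval -0.14 to 0.36), -0.16 at D90 (-0.41 to 0.09) and -0.33 at D180 (-0.58 to -0.09, adjusted p = 0.288 over all genes).

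Ccl22 had log2 values of 6.39, 5.97, 5.98, 6.24 and 6.62 in D0 controls, and 7.74, 7.79, 7.90, 7.83 and 7.50 in D0 exposed rats. At D3 it had 6.48, 6.46, 6.90, 6.54 and 6.56 in controls, and 8.08, 8.11, 8.10, 7.70 and 8.42 in exposed rats. These groups did not overlap, and the changes were 1.51 ± 0.13 (SE, adjusted p = 1.62e-12) and 1.49 (adjusted p = 5.17e-12). At D28 the controls had 6.47, 6.49, 6.90, 6.50 and 6.65, and the exposed rats 6.81, 7.47, 7.05, 7.42 and 7.28, so that 4 of 5 exposed rats lay above all controls. The change of 0.61 (adjusted p = 0.00214), or 1.52-fold, was only just past the fold limit, and 5 of the 10 fits that left out 1 rat of D28 put it below that limit (control replicate 1, 2 or 4, or exposed replicate 2 or 4; log2 change 0.54 to 0.71 over the 10). The call was also lost with normexp correction (0.37), with the authors' series matrix (0.41) and with slide as a block (0.57, adjusted p = 0.000117). Fitted in limma on the D28 arrays alone, the change of 0.61 missed the p limit (adjusted p = 0.13). At D90 and D180 the change was 0.12 (-0.14 to 0.37) and 0.16 (-0.10 to 0.42), and the groups overlapped.

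Ccl20, the ligand of Ccr6, was over-expressed at D0 and D3. Its brighter probe lay at chr9:82443354-82443413 (rn4, plus strand). At D0 the controls had log2 values of 9.01, 9.01, 9.09, 9.36 and 8.99, and the exposed rats 10.21, 10.33, 10.26, 10.72 and 10.37. At D3 the controls had 8.48, 8.78, 8.69, 8.74 and 8.78, and the exposed rats 9.09, 8.98, 9.40, 9.70 and 9.49. All exposed rats lay above all controls at both days. The change was 1.28 ± 0.13 (SE, adjusted p = 3.73e-10) at D0 and 0.64 (adjusted p = 0.000491) at D3. At D3 it fell under the fold limit without exposed replicate 4 (0.55) and with normexp correction (0.56). The change was -0.03 at D28 (-0.29 to 0.24). At D90 the 5 exposed rats, at 8.59, 8.68, 8.73, 8.71 and 8.53, lay below the 5 controls, at 8.95, 9.29, 8.79, 8.88 and 8.81, but the change of -0.30 had an adjusted p of 0.545, and 1.63% of all genes were separated in this direction at D90. At D180 it was -0.36 (adjusted p = 0.263). The second probe, which overlaps the first, gave 1.34, 0.67, -0.08, -0.35 and -0.33 at the 5 days. On this second probe the exposed and control ranges at D90 were not separate.

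**Figure D2:**
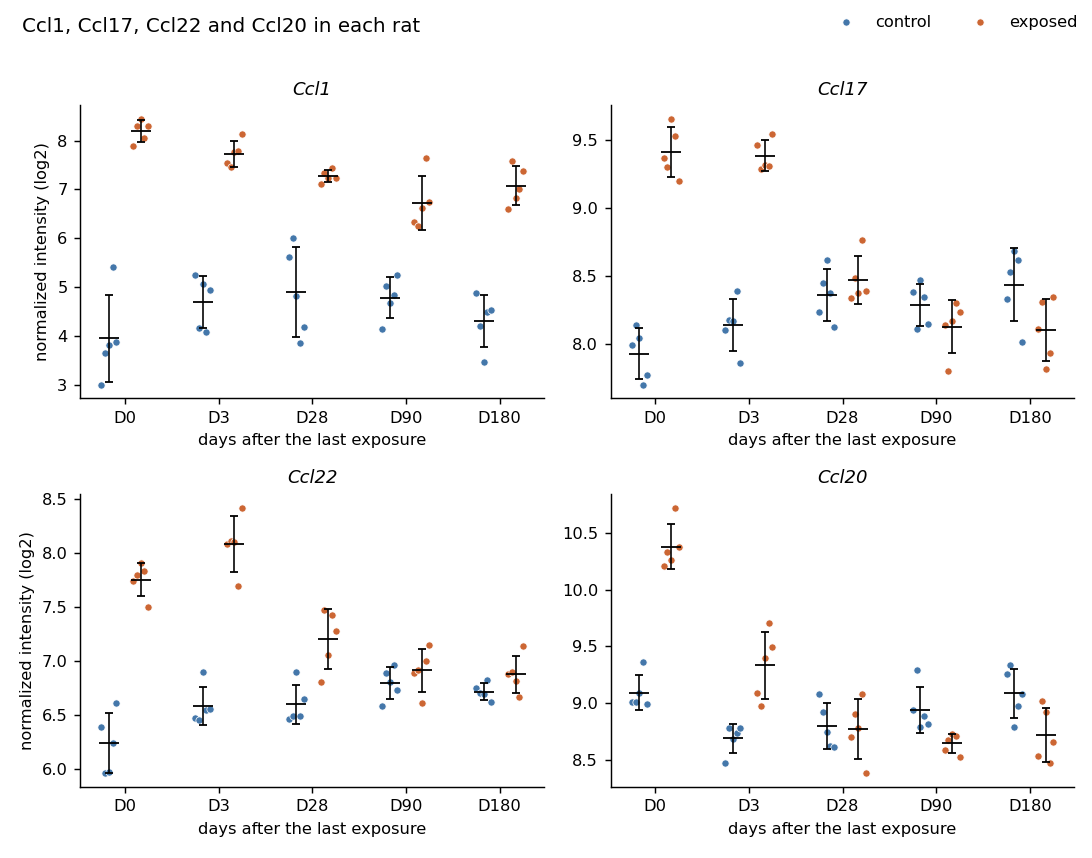
Normalized intensity (log2, vertical axes, one scale per gene) of Ccl1, Ccl17, Ccl22 and Ccl20 in each rat by days after the last exposure, with the mean and SD of 5 rats. The exposed rats sit above all controls at every day for Ccl1, at D0 and D3 for Ccl17, Ccl22 and Ccl20, and 4 of 5 do at D28 for Ccl22; no Ccl1 control at D0 was well above background.

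The 250 bases before the annotated starts of the chemokines were searched for motifs in the RefSeq promoter table (assembly GRCr8), which holds 8 of the 9. Those of Ccl17, Ccl22 and Ccl20 are shown, as genes over-expressed at D0 and D3. The window of Ccl1, also over-expressed at these days, held no match to any motif searched and is not shown. Motifs were searched on both strands, as GGG and TTCC with any 3 bases between for NF-kappaB, TTC and GAA with any 4 between for STAT6, TGA and TCA with any 1 between for AP-1, CACGTG for the E-box and TATAAA for the TATA box. Capitals mark a match to the STAT6 letters in Ccl17 and to the NF-kappaB letters in Ccl20, and Ccl22 held neither.
Ccl17, chr19:10209896-10210145, minus strand: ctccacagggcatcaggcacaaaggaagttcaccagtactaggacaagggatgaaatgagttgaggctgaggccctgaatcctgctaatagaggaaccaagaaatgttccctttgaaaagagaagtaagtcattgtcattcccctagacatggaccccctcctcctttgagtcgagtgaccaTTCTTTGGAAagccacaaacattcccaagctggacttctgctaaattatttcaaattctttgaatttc
Ccl22, chr19:10270360-10270609, minus strand: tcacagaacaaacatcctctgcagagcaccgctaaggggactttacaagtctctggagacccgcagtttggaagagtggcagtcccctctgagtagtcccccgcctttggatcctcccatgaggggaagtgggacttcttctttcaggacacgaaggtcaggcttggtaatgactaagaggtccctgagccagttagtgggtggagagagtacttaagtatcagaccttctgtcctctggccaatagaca
Ccl20, chr9:91836909-91837158, plus strand: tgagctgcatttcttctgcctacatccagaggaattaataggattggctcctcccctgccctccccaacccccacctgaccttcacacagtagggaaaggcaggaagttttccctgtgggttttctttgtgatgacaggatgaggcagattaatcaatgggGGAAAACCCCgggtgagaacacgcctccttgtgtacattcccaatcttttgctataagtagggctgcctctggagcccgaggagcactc
The STAT6 letters stood in 1 of the 8 chemokine windows (Ccl17) and in 6.25% of all 33469 windows. The NF-kappaB letters stood in 1 of 8 (Ccl20) and in 4.53% of all windows. The TATA box letters stood in 2 of 8 (Ccl24 and Cxcl13) and in 12.9% of all windows. The AP-1 and E-box letters stood in 0 of 8, and in 6.34% and 5.59% of all windows. So no motif searched was shared by Ccl1, Ccl17, Ccl20 and Ccl22 in these windows.

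The eotaxins were not over-expressed at any day. Ccl11, which draws eosinophils, was under-expressed at D3 and at no other day. Its probe lay 97 kb from that of Ccl1, at chr10:70283679-70283738 (rn4, plus strand). At D3 the controls had log2 values of 10.17, 10.09, 9.98, 10.22 and 10.01, and the exposed rats 9.19, 9.17, 9.29, 9.29 and 9.49. All 5 exposed rats lay below all 5 controls, and the change was -0.81 ± 0.17 (SE, adjusted p = 0.000822). On each of the 4 slides with both groups the difference was below 0, from -0.93 to -0.55. At D0 the exposed rats had 11.01, 9.90, 9.54, 10.05 and 9.86, so that replicate 1 lay above all controls, which had 9.92 to 10.34, while the other 4 lay within or below them. At D90 replicate 3 of the exposed rats had 10.89, and the other 9 rats 9.58 to 9.93. The changes at D0, D28, D90 and D180 were -0.12 (-0.47 to 0.22), 0.20 (-0.14 to 0.55), 0.08 (-0.27 to 0.42) and 0.09 (-0.26 to 0.44).

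Ccl24 was at a high signal in every rat, between 13.53 and 14.22, and was not called at any day. Its change was -0.19 at D0 (-0.33 to -0.05, adjusted p = 0.0575), -0.17 at D3 (adjusted p = 0.125) and -0.18 at D28 (adjusted p = 0.15). With slide as a block in limma the adjusted p was 0.00203, 0.0117 and 0.0583 at these days. The changes were then -0.19, -0.17 and -0.13, under the fold limit. At D28 the controls had 13.97, 13.99, 13.86, 14.01 and 13.89, and the exposed rats 13.86, 13.71, 13.79, 13.75 and 13.72, without overlap, as for 1.57% of all genes in that direction. These intervals lay within the fold limit. The change was -0.07 at D90 (-0.21 to 0.07) and 0.04 at D180 (-0.10 to 0.18).

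The homing chemokines Ccl19, Cxcl13 and Cxcl12 were not called at any day. Ccl19, which guides T cells and dendritic cells to T cell zones, had group means between 10.78 and 11.32, with SDs of 0.13 to 0.47. Its change was -0.38 at D0 (-0.76 to 0.00), -0.14 at D3 (-0.52 to 0.24), -0.41 at D28 (-0.79 to -0.03), -0.47 at D90 (-0.85 to -0.09) and -0.01 at D180 (-0.39 to 0.37). At D90 the exposed rats ran from 10.32 to 11.12 and the controls from 11.12 to 11.46, with an adjusted p of 0.413.

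Cxcl13, the B cell attractant, varied widely between the arrays of a group. With slide as a block its SE at D0 was 0.23, beside 0.31 without it. At D180 the controls had 7.36, 8.68, 6.57, 7.11 and 7.71 (SD 0.79), and the exposed rats 7.32, 7.91, 7.57, 7.05 and 7.28. The control range held the whole exposed range. Its change at the 5 days in order was -0.42, -0.23, -0.44, -0.52 and -0.06, with an SE of 0.31 at each, and the adjusted p ran from 0.489 to 1. The 95% confidence intervals were -1.06 to 0.18 at D28, -0.85 to 0.39 at D3 and -0.68 to 0.56 at D180. Each of these reached past a level 1.5-fold lower than in controls, so a change of that size could not be told from none with 5 rats.

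Cxcl12, expressed by stromal cells and endothelium, had group SDs of 0.04 to 0.22 on its brighter probe and 0.05 to 0.33 on its second. At D3 the controls had 11.80, 11.70, 11.52, 11.60 and 11.74, and the exposed rats 11.51, 11.22, 11.49, 11.52 and 11.44. The change of -0.24 (-0.39 to -0.08) had an adjusted p of 0.0349 but was under the fold limit. At D90 the exposed rats (median 11.29) also all lay below the controls (11.44 to 11.54), with a change of -0.22 (adjusted p = 0.209). At D0, D28 and D180 the change was -0.14, -0.09 and -0.12. With slide as a block in limma the adjusted p was 0.0342 at D0, 0.00567 at D3 and 0.0362 at D90. It was 0.542 at D28 and 0.264 at D180. The changes at D0, D3 and D90 were then -0.18, -0.26 and -0.22, under the fold limit. The second Cxcl12 probe, which lies further along the gene, gave -0.12, -0.16, -0.12, -0.06 and 0.06 at the 5 days, none called. On it the exposed and control rats overlapped at every day. On the brightest probe of each of the 9 chemokines, 2 had exposed rats all below controls at D3 (Ccl11 and Cxcl12), beside 3.42% of all genes. It was 1 at D28 (1.57%) and 2 at D90 (1.63%). The separation of Cxcl12 at D3 and D90, and of Ccl20 at D90, was not seen on their second probes.

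**Figure D3:**
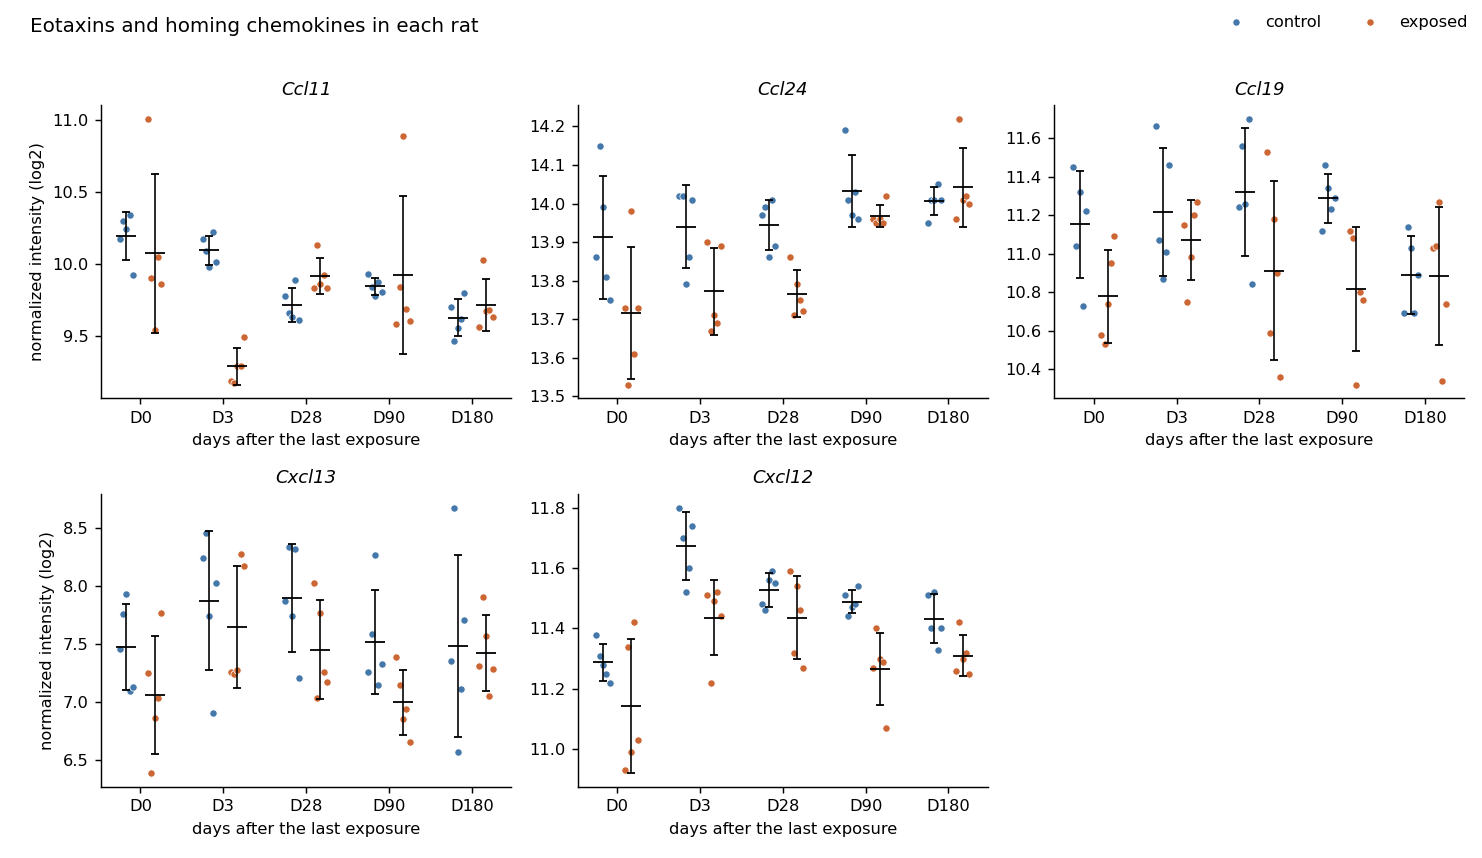
Normalized intensity (log2, vertical axes, one scale per gene) of Ccl11, Ccl24, Ccl19, Cxcl13 and Cxcl12 in each rat by days after the last exposure, with the mean and SD of 5 rats. The exposed rats sit below all controls for Ccl11 at D3, Ccl24 at D28 and Cxcl12 at D3 and D90, and 1 exposed rat stands high for Ccl11 at D0 (11.01) and at D90 (10.89).

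The change in the exposure effect over time was tested as the effect at a later day minus that at D0. Between D0 and D3 no chemokine was called, beside 0.678% of all genes, and 3 of 9 had an unadjusted p under 0.05, beside 9.84% of all genes, namely Ccl1 (-1.22, adjusted p = 0.312), Ccl11 (-0.68, adjusted p = 0.226) and Ccl20 (-0.64, adjusted p = 0.0932). Ccl20 was called with normexp correction, with the authors' series matrix and without exposed replicate 4 at D3. At D28 the effect was smaller than at D0 for 4 of 9, beside 1.06% of all genes, at D90 for 4 of 9, beside 1.5%, and at D180 for 3 of 9, beside 1.34%. For Ccl17 the difference was -1.37 at D28, -1.64 at D90 and -1.81 ± 0.17 (SE) at D180 (adjusted p = 5.24e-10). For Ccl22 it was -0.91, -1.40 and -1.35, and for Ccl20 -1.31, -1.58 and -1.65, with adjusted p from 0.00116 down to 2.92e-08 in limma. For Ccl1 it was -1.88 ± 0.48 (SE) at D28 (adjusted p = 0.0187) and -2.31 at D90 (adjusted p = 0.00138), and at D180 -1.49 (adjusted p = 0.076), which missed the limit. These Ccl1 differences start from the D0 change, where 0 of 5 controls were well above background and normexp correction gave 2.06 in place of 4.25. The D28 call of Ccl1 was lost, leaving 3 of 9, without control replicate 1 at D0, without control replicate 1 or 2 at D28, and on the arrays of D0 and D28 alone. At D180 Ccl1 was called, giving 4 of 9, with 75th percentile scaling, normexp correction and the series matrix, and without control replicate 4 at D0 or control replicate 3 at D180. These differences share the D0 rats.

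Levels in control rats were compared between days on the same slides. From D0 to D3, from D0 to D28 and from D90 to D180, 0 of 9 chemokines were called, beside 2.33%, 2.49% and 0.0198% of all genes. At an unadjusted p under 0.05 the count in the same limma fits was 4, 6 and 1 of 9, beside 17.8%, 18.8% and 4.83% of all genes. The mean of Ccl1 in controls was 3.95 at D0, 4.70 at D3 and 4.90 at D28, with changes from D0 of 0.75 (adjusted p = 0.215) and 0.95 (adjusted p = 0.0856). The probe was well above background in 0 of 5 controls at D0 and in 3 of 5 at D3 and D28, so these are differences near background. Ccl1 was called in the D28 comparison with 75th percentile scaling, without control replicate 4 at D0 and without control replicate 4 or 5 at D28, and in the D3 comparison without control replicate 4 at D0. Cxcl12 was 0.39 higher in controls at D3 than at D0 (adjusted p = 0.000459) and 0.24 higher at D28 (adjusted p = 0.0428), both under the fold limit. Ccl17 was 0.43 higher in controls at D28 than at D0 (adjusted p = 0.0216), also under it.

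Clock genes differed between control and exposed rats at every day, in a direction that turned between D3 and D28. Dbp, a transcription factor of clock output, changed by -1.95, -2.49, 3.27, 3.36 and 2.97 at the 5 days in order. Nr1d1, a repressor of the clock, changed by -3.27, -1.31, 3.04, 2.22 and 3.03, and Arntl, its activator, by 1.26, 1.67, -1.47, -1.58 and -1.09. All 15 of these values were called. Their part in the chemokine values was not tested.

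Across the 50 arrays, after taking out the mean of each day, Ccl17 and Ccl22 moved together (r = 0.85), as did Ccl1 and Ccl22 (r = 0.80) and Ccl17 and Ccl20 (r = 0.78). The points share the difference between exposed and control rats, and these values are descriptions with no test. With the mean of each group taken out instead, r was 0.28, 0.13 and -0.03 for these 3 pairs. Ccl19 and Cxcl13 had r = 0.67, and 0.59 after the mean of each group was taken out, the highest of any pair within groups. So arrays with more Ccl19 than others of their group tended to have more Cxcl13. Both genes also differed between slides. At D28 Cxcl13 was 7.77 to 8.34 on slide 3 and 7.03 to 7.21 on slide 4. On the same slides Ccl19 was 11.18 to 11.70 and 10.36 to 10.84. The part of slide in this r was not tested.

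**Figure D4:**
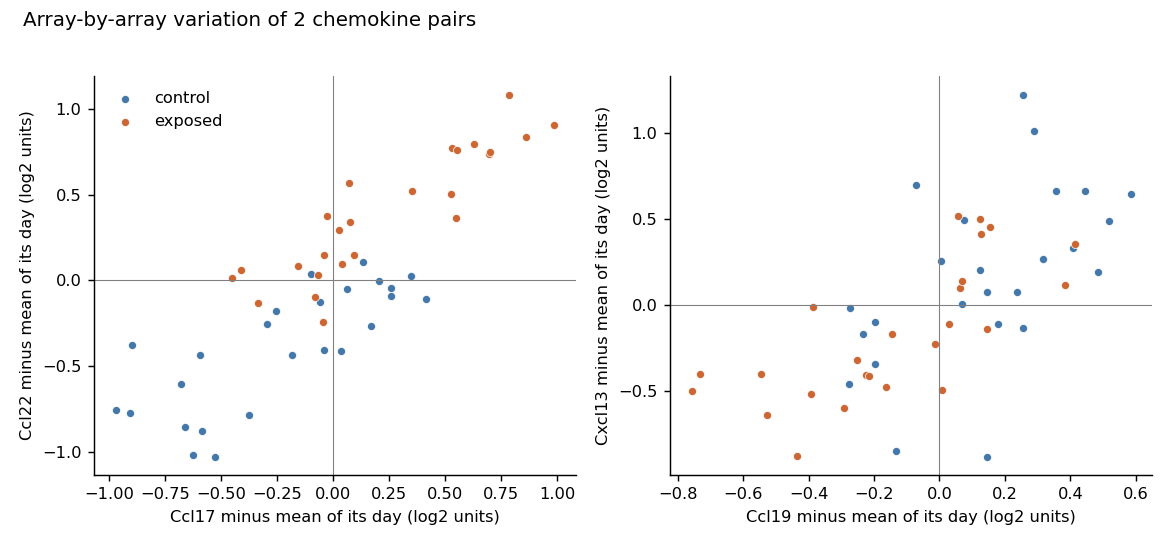
Values of Ccl22 against Ccl17 and of Cxcl13 against Ccl19 on the 50 arrays, each minus the mean of the 10 arrays of its day (log2 units on both axes). Exposed and control rats separate in part along the first pair (r = 0.85) and mix along the second (r = 0.67).

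Of all genes with a symbol, those most like Ccl1 by the same measure were Retnla (r = 0.95), a secreted protein of alternatively activated macrophages and epithelium, Slc7a11 (0.94), the cystine transporter, and Hp (0.93), haptoglobin. The Retnla signal was 9.53 to 10.73 in D0 controls and 13.34 to 14.09 in D0 exposed rats, and still 12.35 to 12.84 in exposed rats at D180 against 9.94 to 10.74 in controls. Those most like Ccl17 were Tmem56 (0.92), Enpp3 (0.90) and Gch1 (0.90), the first enzyme of tetrahydrobiopterin synthesis. Ccl20 shared Tmem56 (0.84) and Gch1 (0.83) and had Sod2, the mitochondrial superoxide dismutase, first (0.85). Those most like Ccl22 were Sel1l3 (0.95), Rnaset2 (0.95) and Defb5 (0.95).

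Ccl11 was most like Muc16 (0.72), a mucin of mesothelium and airway, Sytl5 (0.71) and Slc26a3 (0.70). Muc16 was 10.70 to 10.79 in D3 controls and 9.75 to 10.14 in D3 exposed rats. On the array of exposed replicate 3 at D90, where Ccl11 stood high, Muc16 was 11.41, its highest of the 50, and its part in that Ccl11 value was not tested. Ccl19 was most like Il22ra2 (0.73), Atg4al1 (0.72) and Klhdc8a (0.71), Ccl24 like Alpk3 (0.85), Kcnj3 (0.85) and Olr1335 (0.84), Cxcl12 like Ptprd (0.87) and Pxdn (0.83), and Cxcl13 like Sox17 (0.73), Esf1 (0.73) and Pcbd2 (0.73).

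Of the 11 receptors of these chemokines, 10 were measured on the array. At D0 1 was over-expressed and 1 under-expressed, beside 2.77% and 1.51% of all genes. At D3, D28, D90 and D180 0 were called. Ccr6, the Ccl20 receptor, was 8.77 ± 0.29 (SD, n = 5) in controls and 9.53 ± 0.16 in exposed rats at D0, a change of 0.76 (adjusted p = 0.000863). Ackr3, a scavenging receptor of Cxcl12, was 11.22 ± 0.23 and 10.59 ± 0.18, a change of -0.63 (adjusted p = 0.000809), and fell short of the fold limit in 2 of the 10 fits that left out 1 rat. Ccr7, the Ccl19 receptor, changed by 0.43 at D0 (adjusted p = 0.00799), under the fold limit. Ccr4, Ccr8 and Cxcr5, the receptors of Ccl17 and Ccl22, of Ccl1 and of Cxcl13, were not well above background on any of the 10 arrays of D0. Ccr3, the eotaxin receptor, was well above background on 2 of them and changed by 0.82 (adjusted p = 0.359), Ackr2 on 6 of them, with a change of -0.00. Cxcr4 and Ackr4 changed by 0.08 and 0.00.

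Type 2 cytokine genes were counted beside these ligands. Of 15 type 2 cytokines and signalling genes, 1 was over-expressed and 1 under-expressed at D0, beside 2.77% and 1.51% of all genes. At D3 1 was under-expressed (1.51% of all genes), at D28 and D90 0 were called, and at D180 1 was over-expressed (0.246%). Il13, a type 2 cytokine, was 3.42 ± 1.00 (SD, n = 5) in controls and 5.32 ± 0.86 in exposed rats at D0, a change of 1.90 (adjusted p = 0.0012), with 6 of the 10 arrays well above background. Fitted on the D0 arrays alone its adjusted p was 0.0807. Il13ra2, the decoy receptor of Il13, changed by -0.73 at D0 (adjusted p = 0.0432) and -0.85 at D3 (adjusted p = 0.0194), and was not called with normexp correction (-0.21 and -0.38) or with the replicate block (adjusted p = 0.131 and 0.0837). Gata3, the transcription factor of type 2 lymphocytes, named after its value was seen as the 1 called at D180, changed by 0.85 (adjusted p = 0.00716), and was not called with 75th percentile scaling (0.76, adjusted p = 0.0642), with normexp correction (0.57, under the fold limit) or with the replicate block (adjusted p = 0.0523).

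Of 16 genes of lymphoid tissue organisation, 2 were over-expressed at D0 (2.77% of all genes). At D3 1 was over- and 1 under-expressed (1.98% and 1.51% of all genes), with 0 later. Ltb, lymphotoxin beta, which drives lymphoid tissue formation, rose from 12.20 ± 0.14 (SD, n = 5) in controls to 13.47 ± 0.11 in exposed rats at D0, a change of 1.27 (adjusted p = 3.92e-15), and by 0.80 at D3 (adjusted p = 2.9e-09). Il7r, the interleukin 7 receptor, rose by 0.86 at D0 (adjusted p = 0.000378). Chst4, which sulfates ligands of L-selectin in high endothelial venules and was named after its value was seen, fell by 0.80 on the log2 scale at D3 (adjusted p = 0.000927), and by 0.32 with normexp correction, under the fold limit.

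Markers of the cells that make or follow these chemokines were counted at D0 and D3. Over all genes, 2.77% were over-expressed at D0 and 1.98% at D3. Of 10 dendritic cell markers 2 were over-expressed at D0, Clec9a (0.66) and Cd86 (0.84), and 1 at D3, Clec9a (0.77). At D0 neither reached the fold limit with normexp correction (0.56 and 0.42) or with the series matrix (0.57 and 0.50). Of 8 T cell markers 2 were over-expressed at D0, Cd3g (0.67, adjusted p = 1.18e-05) and Il2ra (0.91, adjusted p = 0.0416), and 1 at D3, Il2ra (1.28). Il2ra was not called with normexp correction (0.18 at D0 and 0.50 at D3) or with the series matrix (0.22 and 0.07), nor at D0 with the replicate block (adjusted p = 0.058) or at D3 on the arrays of that day alone (adjusted p = 0.0628). Of 8 B cell markers 2 were over-expressed at D0, Cd79b (0.68) and Fcer2 (0.84), and 1 at D3, Blk (0.66), named after its value was seen. These 3 were under the fold limit with normexp correction (0.51, 0.29 and 0.34) and with the series matrix (0.54, 0.33 and 0.38), and missed the p limit on the arrays of their day alone (adjusted p = 0.084, 0.172 and 0.0719). The Fcer2 call was also lost with 75th percentile scaling (adjusted p = 0.0518) and the replicate block (adjusted p = 0.0521). The D0 calls of Il2ra, Cd79b and Fcer2 were lost in 8, 4 and 2 of the 10 fits that left out 1 rat, and that of Blk at D3 in 1. Of 4 eosinophil markers 0 were called at any day, and the granule genes Epx and Prg3 were well above background on 0 of the 10 arrays of D0. The mean of the T cell markers, as the value of each minus its mean over the 50 arrays, ran from -0.63 to -0.25 in D0 controls and from -0.19 to 0.17 in D0 exposed rats. The dendritic cell mean ran from -0.26 to -0.14 and from -0.13 to 0.09, the neutrophil mean from -0.13 to 0.53 and from 0.47 to 1.09, and the blood endothelium mean from 0.12 to 0.26 and from -0.57 to -0.32. Their part in the chemokine values was not tested.

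Other markers moved with exposure beside the chemokines. Over all genes, 2.77% were over-expressed at D0, 1.98% at D3 and 0.861% at D28. The share under-expressed was 1.51% at D0 and at D3. Of 5 neutrophil markers 2 were over-expressed at D0 and D3 and 1 at D28, namely S100a8 (1.37 at D0) and S100a9 (1.69 at D0 and 0.88 at D28). Fitted in limma on the D28 arrays alone, S100a9 missed the p limit (adjusted p = 0.0762). The neutrophil mean at D28 ran from -0.47 to 0.27 in controls and from -0.27 to 0.07 in exposed rats. Of 8 alveolar macrophage markers 0 were called at D0 and 1 at D3, Siglec1 (0.94). Cldn5, of 4 blood endothelium markers, fell by 0.87 at D0, and Lyve1, of 5 lymphatic endothelium markers, fell by 0.77 at D0 and by 0.64 at D3. No marker of fibroblasts and smooth muscle (6), cardiac muscle (5), thymus (4) or red blood cells (4) was called at any day. The fibroblast and smooth muscle mean, taken as for the T cell markers, still lay lower in exposed rats at D0. It ran from -0.14 to -0.01 in D0 controls and from -0.54 to -0.28 in D0 exposed rats. The D0 ranges of the cardiac muscle, thymus and red blood cell means overlapped. The part of these cells in the chemokine values was not tested.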

How the data were processed

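RNA of the accessory lobe of the lung was labelled with Cy3 and hybridised to 1-colour Agilent rat arrays. Per the file headers, the deposited values are spot intensity from Agilent Feature Extraction 11.0.1.1, with background and spatial trends removed and no scaling between arrays. From its values, the authors' series matrix holds median intensity, quantile normalized, and served as an alternative. Spots that the software marked as non-uniform or outlying were dropped, the rest of a probe's spots were averaged as log2 intensity, and arrays were quantile normalized. A probe was kept if it exceeded the negative controls' 95th percentile in 5 or more arrays (29549 probes), and the brightest probe of each gene was used. Gene names altered by a spreadsheet on 84 spots were restored from the other files. Groups came from the sample labels. All 10 groups entered 1 fit (limma 3.58.1, R 4.3.3), with two-sided p-values, and the fit was tested on simulated data. The alternatives were 75th percentile scaling, normexp (offset 50), no filter, a filter on at least 25 arrays, slide or replicate number as a block, only the arrays compared, the series matrix, no fold limit, each probe separately, and each rat left out. The chemokines and all gene lists were chosen with earlier results of these data known. Named were all 9 chemokines and their receptors, up to 4 called genes of each other list at the day with most calls (with Dbp, Nr1d1 and Arntl for the clock), and the 3 genes most like each chemokine, of which 1 is not reported here. Elderly rats were not analysed here.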

Additional observations from a re-analysis of the deposited data

Results flagged for a closer look

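Of 110 groups of 5 rats, counting each chemokine probe at each day, 9 held a rat that stood apart from the other 4 by Dixon's test, and chance gives about 1 in 20. Ccl11 was high in replicate 3 of the exposed rats at D90 (10.89, with the next at 9.84) and in replicate 2 at D180 (10.03). Without D90 exposed replicate 3 the change at D90 was -0.16. Ccl24 was high in D90 control replicate 1 (14.19), D90 exposed replicate 5 (14.02) and D180 exposed replicate 2 (14.22). Ccl20 was high in D0 control replicate 4 (9.36), and Ccl22 in D3 control replicate 3 (6.90). Cxcl12 was low in D3 exposed replicate 2 (11.22), and its second probe was high in D90 exposed replicate 3 (11.62). So replicate 3 of the D90 exposed rats stood high for both Ccl11 and the second Cxcl12 probe, and replicate 2 of the D180 exposed rats for both Ccl11 and Ccl24.

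The exposure effect differed from that at D0, as an interaction in limma, for 11 pairs of gene and day. For Ccl1 the difference was -1.88 at D28 and -2.31 at D90. For Ccl17 it was -1.37 at D28, -1.64 at D90 and -1.81 at D180. For Ccl20 it was -1.31, -1.58 and -1.65, and for Ccl22 -0.91, -1.40 and -1.35, at the same days. Adjusted p ran from 0.0187 for Ccl1 at D28 to 5.24e-10 for Ccl17 at D180.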

How the results depend on the processing

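The counts of chemokines called against controls were the same under all alternatives at D0, D90 and D180 (4, 1 and 1). At D3 the count of 5 became 4, losing Ccl20, with normexp correction or without exposed replicate 4, and 6, with Cxcl12, with no fold limit. At D28 the count fell from 2 to 1, leaving Ccl1, with normexp correction, slide as a block, only the arrays compared and the series matrix, and was 1 to 2 with each rat left out. For the exposure effect at D3 against D0 the count rose from 0 to 1 (Ccl20) with normexp correction and the series matrix, and was 0 to 1 with each rat left out. In controls, D28 against D0 gave 1 (Ccl1) with 75th percentile scaling and 2 with no fold limit, and D3 against D0 gave 1 with no fold limit, each being 0 to 1 with each rat left out. Values that were not called and changed sign were Ccl20 at D28 (0.0028 with normexp, 0.0198 with slide as a block, 0.00417 with the series matrix), Cxcl12 at D180 (0.095 and 0.073 with normexp and the series matrix, where its other probe was the brighter) and Ccl19 at D180 (0.0069 with slide as a block). Among receptors at D0, Cxcr5 (-0.074) and Ackr2 (0.0998) turned with 75th percentile scaling, Ccr4 (0.079) and Ccr8 (0.036) with normexp, and Ccr4 (0.117) with the series matrix. Of these, Cxcr5, Ccr4 and Ccr8 were not well above background on any D0 array. With each rat left out, sign changes lay within -0.36 to 0.0094 for Ccl11 at D0, -0.16 to 0.16 for Ccl11 at D90, -0.10 to 0.13 for Ccl19 at D180, -0.10 to 0.071 for Ccl20 at D28, -0.0033 to 0.060 for Ccl24 at D180 and -0.29 to 0.24 for Cxcl13 at D180. For receptors at D0 they lay within -0.46 to 0.028 (Ccr4), -0.19 to 0.012 (Ccr8), -0.16 to 0.090 (Cxcr5), -0.20 to 0.16 (Ackr2) and -0.10 to 0.083 (Ackr4). The causes were not tested. Same-numbered control and exposed rats deviated together (r over 0.1) in 8 of 25 pairs, with r from -0.34 to 0.45, so the numbers were not taken to pair rats. With the replicate block the counts at the 5 days were 4, 5, 2, 1 and 1, as without it, and comparisons of controls between days could not be fitted with it. Control signal close to background limits the Ccl1 values.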
